A study of Rattus norvegicus with 16 samples.

Results

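Transcripts of the oxidative phosphorylation machinery were followed in cultured rat hepatocytes exposed to either of 2 drugs that act on sterol synthesis. The genes were all those whose rat symbol begins with Nduf (complex I), Uqcr (complex III), Atp5 (complex V) or Cox followed by a digit from 4 to 8 (complex IV), together with Sdha to Sdhd (complex II) and Cyc1. A gene counted as measured if one of its probes passed the scanner's test of signal over background in 6 or more of 32 colour channels. By this rule 81 genes were measured, of 20789 genes tested in all, and each of the 81 passed in all 32 channels. They comprised 39 complex I genes (6 of them assembly factors), 4 of complex II, 8 of complex III, 15 of complex IV and 15 of complex V. By their symbols, Cox6c-ps1 in complex IV is a pseudogene and Ndufa10l1 in complex I a paralog of a subunit gene. The rat annotation holds 228 symbols of this form, many of them pseudogenes, and 83 had a named probe. Cox8b and Cox8c, isoforms outside the liver, had a probe that was not well above background in any channel. Cyc1, Ndufs6, Ndufa8, Ndufa13 and Atp5mc3 had no named probe, and none of the 13 subunits encoded in mitochondrial DNA was measured, so the values concern nuclear genes.

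The treated cells received 100 µM SQ1 or 30 µM pravastatin, added 48 h after plating and left for 48 h, and the reference cells were untreated. All were primary hepatocytes of male Sprague Dawley rats kept in Williams Medium E. Pravastatin is a statin, an inhibitor of the enzyme that makes mevalonate, and SQ1 is a code name of the labels, known as squalestatin 1, which blocks squalene synthase further down the same pathway. Each of 16 arrays carried 1 treated and 1 untreated sample in different dyes, with 8 arrays per drug and 4 in each dye orientation. The doses differed between the drugs, and the series calls the cultures biological replicates without naming animals. In cultured cells, less RNA of a gene per cell and fewer cells of a type give the same reading.

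Oxidative phosphorylation is the last stage of respiration in mitochondria. Complexes I and II take electrons from NADH and succinate and pass them to ubiquinone, complex III moves them on to cytochrome c, and complex IV hands them to oxygen, while complexes I, III and IV pump protons that drive ATP synthesis by complex V. Hepatocytes are rich in mitochondria and rely on this chain for glucose, urea and lipid metabolism. Ubiquinone, the carrier between the complexes, has an isoprenoid tail that is made from mevalonate by a branch leaving the sterol pathway before squalene.

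Values are log2 of treated over untreated with the standard error (SE) of a model fitted across all genes with limma, and a gene is said to have risen or fallen when its Benjamini-Hochberg adjusted p over all 20789 genes was under 0.05. Sample groups followed the labels of the scanner files. In the deposited table of processed log2 ratios, each column matched the scanner values filed under the other drug with its number (r = 0.999 to 1.00) better than those under its own label (r = 0.450 to 0.562). Were that table's headings right and the scanner labels wrong, every SQ1 and pravastatin value below would change places. The arrays were scanned on 2 days, with 4 arrays of either drug on each, and each of the 4 slides held a single drug on a single day, so drug and slide cannot be told apart in the comparison of the drugs. Same-numbered arrays of both drugs were taken to carry the same untreated culture, from the control number in the file names. The labels do not state this, and the main model held no term for it. On that reading the SQ1 and pravastatin comparisons share their untreated samples. Their values are therefore given side by side without a measure of their agreement.

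With SQ1, 59 of the 81 genes fell, 8 rose and 14 did not pass, against a background of 31.2% of all genes tested that fell and 32.6% that rose (63.8% in either direction). Their median was −0.18, and the median of the 81 genes on a single array lay between −0.23 and −0.094, below 0 on 8 of 8 arrays. With pravastatin, 44 fell, 6 rose and 31 did not pass, against 19.6% and 19.4% of all genes (38.9% in either direction). The pravastatin median was −0.081, with single arrays between −0.13 and −0.0058, again below 0 on 8 of 8. The median of all genes tested was 0.0073 with SQ1 and 0.0018 with pravastatin. Among the 10% of all genes with the brightest probes, which hold 56 of the members, 37.1% fell and 43.4% rose with SQ1 (80.5% in either direction). With pravastatin 26.4% of those genes fell and 33.4% rose (59.8% in either direction). The members' shares in either direction, 82.7% with SQ1 and 61.7% with pravastatin, are near these, so the total called is no result about the members. Most shifts were small: Cox6a2 and Ndufv2 were the members past 1.5-fold with SQ1, and none passed 1.5-fold with pravastatin. Within scan day 1, 21 genes fell and 5 rose with pravastatin (median −0.057), and within scan day 2, 49 fell and 6 rose (median −0.12). The SQ1 counts were 52 falls and 8 rises within scan day 1 (median −0.15) and 64 falls and 8 rises within scan day 2 (median −0.21). With the replicate number, taken to mark a shared untreated culture, as a fixed block, 13 genes rose and 49 fell with pravastatin. With the number as a random block, 5 rose and 44 fell. The SQ1 counts moved by less than 1.5 times under either block. Single genes said below to pass with the replicate block did so with the fixed block and not with the random one.

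How far these transcripts fell depended on how the arrays were normalised. Probes of 56 of the 81 genes belonged to the brightest 10% of all genes, and the main normalisation (loess) sets the average change at each brightness close to 0 on each array. Centring each array on its median, with no correction by brightness, left 25 genes that fell and 17 that rose with SQ1 (median −0.024), and 16 that fell and 12 that rose with pravastatin (median −0.020). Under that centring the brightest 10% of all genes had a median of 0.21 with SQ1 and the 56 members in it a median of −0.035, compared with 0.040 and −0.21 under loess. For pravastatin the corresponding medians were 0.099 for the brightest 10% and −0.030 for the members, compared with 0.025 and −0.11 under loess. Under both normalisations the members' median lay below that of equally bright genes, while its distance from 0 depended on the choice. Of the 59 genes that fell with SQ1, 44 kept their sign and 22 kept their call under all 4 alternative scalings (median centring, Agilent's processed signals, a smaller background offset, and arrays scaled to a common spread). Of the 44 that fell with pravastatin, 40 kept their sign and 16 their call. Falls below are relative to genes of similar brightness in this sense, and the named genes whose sign turned are given with that value.

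**Figure D1:**
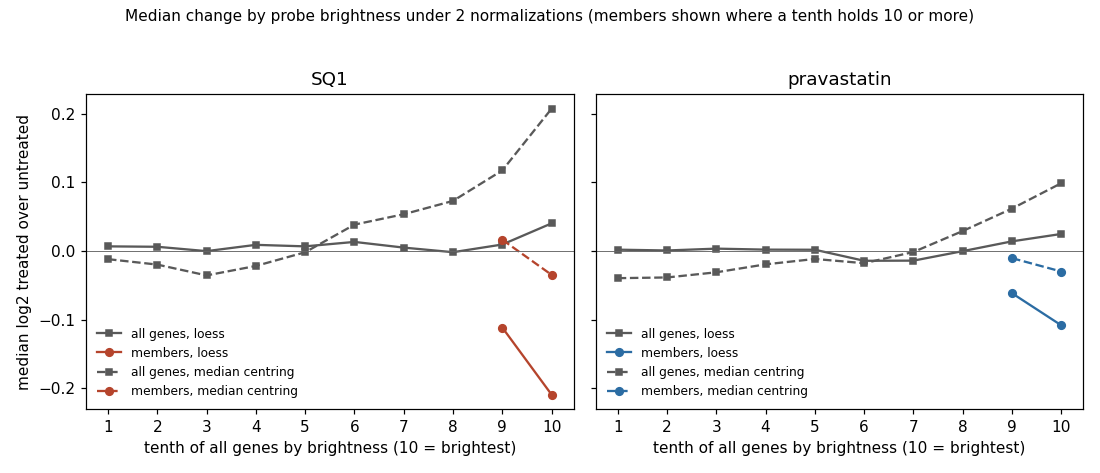
Median log2 of treated over untreated (vertical axis) by decile of probe brightness (horizontal axis), for SQ1 (left) and pravastatin (right). Grey squares are all genes and coloured circles the oxidative phosphorylation genes in the deciles that hold 10 or more of them, with loess (solid) or median centring (dashed). In the brightest 10% with SQ1, the members lie at −0.21 below genes at 0.040 with loess, and at −0.035 below genes at 0.21 with median centring.

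**Figure D2:**
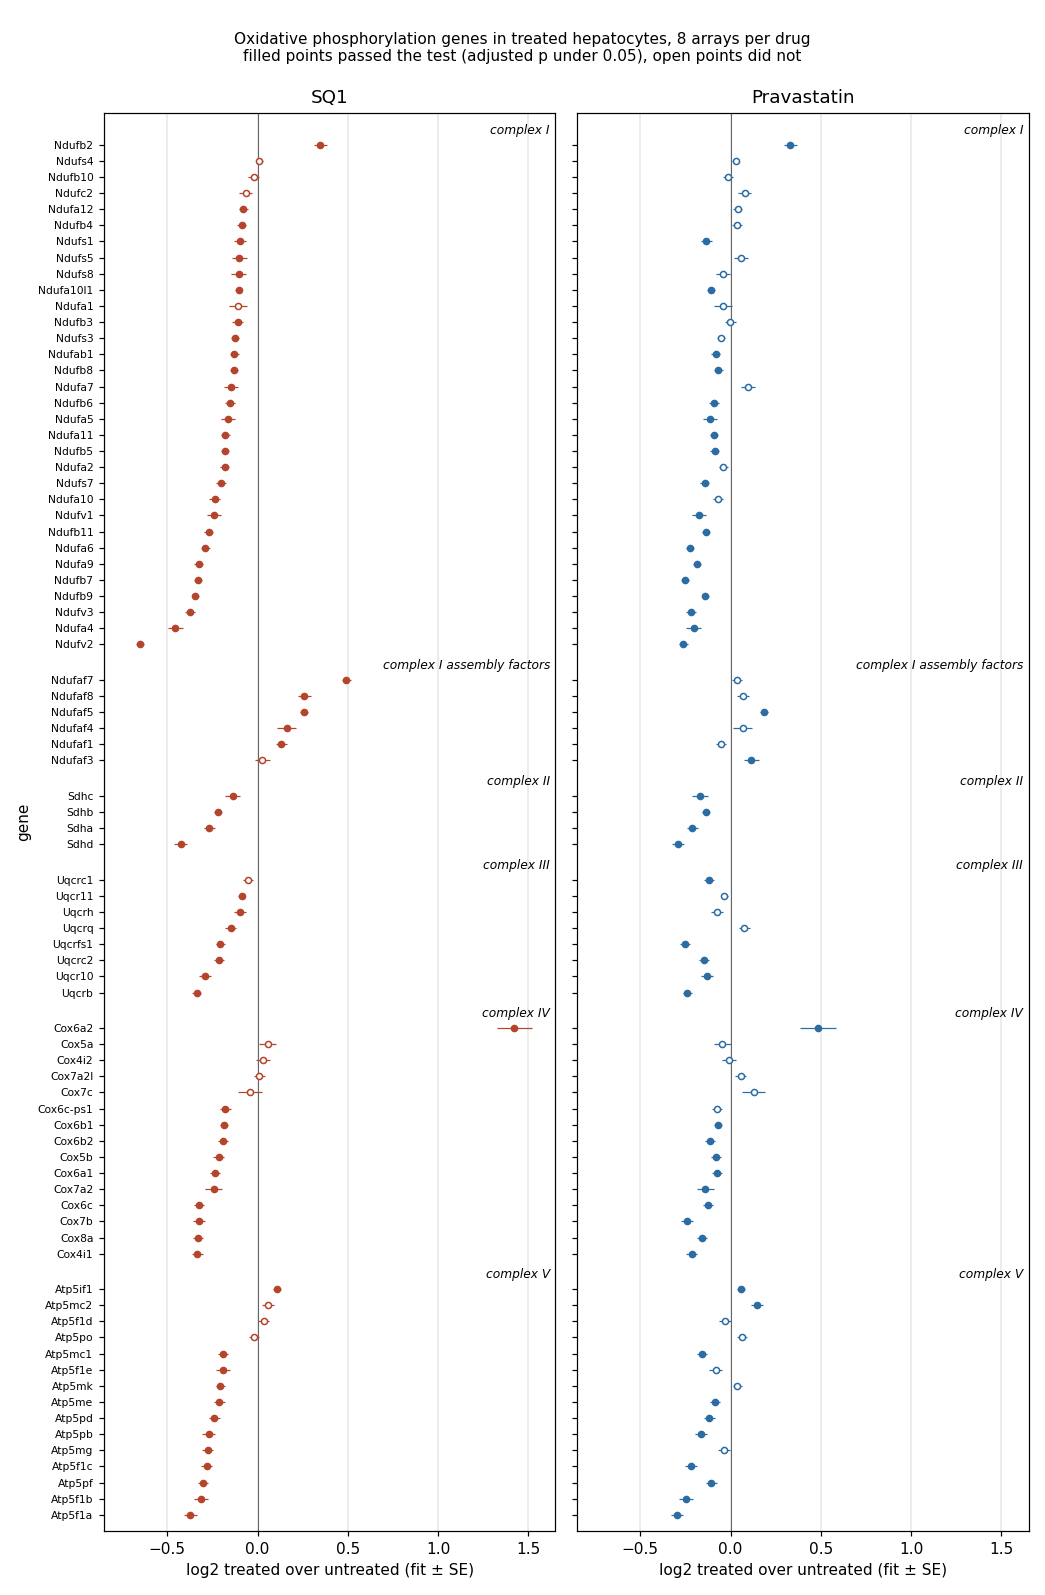
Log2 of treated over untreated for the oxidative phosphorylation genes other than 1 left out (fit with SE, 8 arrays per drug), with SQ1 on the left and pravastatin on the right, grouped by complex. Filled points passed the test, 67 with SQ1 and 50 with pravastatin, and open points did not. Complex I assembly factors lie mostly right of 0 with SQ1, and most subunits lie left of it under loess (44 of the 59 SQ1 falls and 40 of the 44 pravastatin falls kept their sign under all 4 other scalings).

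Promoters were set beside these values because many nuclear genes of the chain are known to be bound by NRF1, by the ETS factor GABPA and by YY1. RefSeq promoters (assembly GRCr8, from 250 bases before the transcript start to 50 after it) were found for 71 of the 81 genes. The NRF1 core GCGCATGC, searched on both strands, stood in 10 of the 71 (14.1%), compared with 4.41% of 9759 promoters of genes tested here and 2.66% of 27457 promoters of all genes. The ETS core CCGGAAGT stood in 7 (9.86%, compared with 7.51% of tested genes and 4.01% of all), and the YY1 core AAGATGGC in 13 (18.3%, compared with 4.78% and 3.44%). The NRF1 core can overlap its own reverse complement, so that 1 stretch can match on both strands, as in both matching promoters shown. At least 1 of the 3 stood in 18 of the 51 promoters of genes that fell with SQ1 (35.3%), 3 of the 8 that rose (37.5%) and 4 of the 12 that did not pass (33.3%). Over the 71 promoters the share was 35.2%, compared with 15.3% for tested genes and 9.42% of all promoters. These shares are descriptions: a match shows letters and not a bound site. The 250 bases before the start are shown for the genes with the strongest rise and fall and for a pair with matches, capitals marking the NRF1 core and, in Atp5me, also the YY1 core on the other strand further from the start.
Cox6a2 (chr1:192219717-192219966, minus strand): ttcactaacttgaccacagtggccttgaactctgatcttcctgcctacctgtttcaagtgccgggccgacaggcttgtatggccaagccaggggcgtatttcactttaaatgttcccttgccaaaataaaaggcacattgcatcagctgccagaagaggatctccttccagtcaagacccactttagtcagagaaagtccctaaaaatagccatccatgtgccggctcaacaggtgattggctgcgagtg
Ndufv2 (chr9:113157521-113157770, minus strand): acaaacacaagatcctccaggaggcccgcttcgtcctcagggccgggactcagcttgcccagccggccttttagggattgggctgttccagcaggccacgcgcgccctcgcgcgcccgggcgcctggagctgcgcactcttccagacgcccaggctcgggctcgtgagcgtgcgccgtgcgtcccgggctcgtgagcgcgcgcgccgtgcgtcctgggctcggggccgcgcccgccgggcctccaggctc
Ndufaf5 (chr3:147961362-147961611, plus strand): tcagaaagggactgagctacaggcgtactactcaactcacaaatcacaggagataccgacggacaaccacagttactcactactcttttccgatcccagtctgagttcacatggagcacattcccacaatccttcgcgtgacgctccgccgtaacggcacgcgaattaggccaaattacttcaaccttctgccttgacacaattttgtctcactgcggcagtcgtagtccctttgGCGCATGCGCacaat
Atp5me (chr14:1464610-1464859, plus strand): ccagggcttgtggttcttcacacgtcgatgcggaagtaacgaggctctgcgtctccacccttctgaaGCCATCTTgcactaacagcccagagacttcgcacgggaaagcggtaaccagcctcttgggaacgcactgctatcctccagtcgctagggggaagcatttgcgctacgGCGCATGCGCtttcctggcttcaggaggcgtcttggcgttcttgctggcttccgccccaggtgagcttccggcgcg
Neither Cox6a2 nor Ndufv2, the members that moved furthest, holds any of the 3 cores in this window. Ndufaf5, which rose with both drugs, and Atp5me share the NRF1 core. Atp5me had −0.21 ± 0.029 with SQ1 and −0.087 ± 0.029 with pravastatin, and both calls were lost under median centring (−0.035, adjusted p = 0.56 with SQ1, −0.0049, adjusted p = 0.95 with pravastatin), the pravastatin call also without pravastatin array 3, 4, 5 or 8 (adjusted p = 0.062 to 0.088).

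Complex I is the entry point for electrons from NADH, and its core subunits carry the flavin and the iron-sulfur clusters. Of the 7 core subunits measured, 6 fell with SQ1 (median −0.13) and 4 with pravastatin (median −0.13). Ndufv2, an iron-sulfur subunit of the module that binds NADH, had the deepest SQ1 fall of all 81 genes. It read −0.76 to −0.55 on the SQ1 arrays (median −0.64) and −0.31 to −0.22 on the pravastatin arrays (median −0.25). Every SQ1 array lay below every pravastatin array, and no array of either drug reached 0. The fitted change was −0.65 ± 0.023 with SQ1 (1.57-fold lower, adjusted p = 4.9e-14) and −0.26 ± 0.023 with pravastatin (adjusted p = 7.3e-08). Its neighbour in the same module, Ndufv1, which holds the flavin, read −0.45 to 0.083 on the SQ1 arrays (median −0.27) and −0.41 to 0.061 on the pravastatin arrays (median −0.21). Nearly all arrays were below 0, with 1 SQ1 array and 2 pravastatin arrays above it, and the ranges overlapped. The fit for Ndufv1 gave −0.24 ± 0.037 with SQ1 and −0.18 ± 0.037 with pravastatin, and both calls were lost under median centring (−0.096, adjusted p = 0.064 with SQ1, −0.11, adjusted p = 0.062 with pravastatin).

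The remaining core subunits moved less. Ndufs7, which carries the last iron-sulfur cluster before ubiquinone, had −0.20 ± 0.025 with SQ1 and −0.14 ± 0.025 with pravastatin. The SQ1 call of Ndufs7 was lost with arrays scaled to a common spread (−0.16, adjusted p = 0.12) and the pravastatin call under median centring (−0.11, adjusted p = 0.075). Ndufs3 fell with SQ1 (−0.13 ± 0.024; −0.0064, adjusted p = 0.91 under median centring), and with pravastatin (−0.053 ± 0.024) it passed with the replicate block (adjusted p = 0.045, against 0.088 without it), with Agilent's processed signals or within scan day 2. Ndufs1, which carries several clusters of the NADH module, read −0.25 to 0.021 on the SQ1 arrays (median −0.059) and −0.27 to −0.039 on the pravastatin arrays (median −0.11). The ranges overlapped, and 1 SQ1 array lay just above 0. Its SQ1 fall of −0.098 ± 0.033 (adjusted p = 0.015) turned to 0.039 under median centring and missed the threshold without SQ1 array 7 or 8 (adjusted p = 0.056 to 0.059). With pravastatin Ndufs1 had −0.13 ± 0.033, a call lost within scan day 1 (−0.073, adjusted p = 0.16). Ndufs8 fell by 0.10 with SQ1, a call lost under median centring (−0.017, adjusted p = 0.71) and without SQ1 array 2, 3, 4, 7 or 8 (adjusted p = 0.061 to 0.11).

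Accessory subunits surround the core and hold its arms together. Among the 25 measured, 20 fell and 1 rose with SQ1 (median −0.15), and 13 fell and 1 rose with pravastatin (median −0.071). Across complex I without its assembly factors, 17 of the 27 SQ1 falls kept their sign under all 4 other scalings, and 16 of the 18 pravastatin falls did. The call was kept by 9 of the 27 and by 6 of the 18. Ndufa4, once assigned to complex I and now placed in complex IV, read −0.75 to −0.23 on the SQ1 arrays (median −0.39) and −0.48 to 0.23 on the pravastatin arrays (median −0.24). All 8 SQ1 arrays were below 0, while 1 pravastatin array was above it, and the ranges overlapped. The fit gave −0.46 ± 0.042 with SQ1 and −0.21 ± 0.042 with pravastatin, and the pravastatin call was absent within scan day 1 (−0.14, adjusted p = 0.13) and under median centring (−0.10, adjusted p = 0.060).

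Ndufv3, an accessory subunit of the NADH module, read −0.44 to −0.25 on the SQ1 arrays (median −0.39) and −0.29 to −0.11 on the pravastatin arrays (median −0.25). All 16 arrays were below 0 and the ranges overlapped. The fit gave −0.37 ± 0.027 with SQ1 and −0.22 ± 0.027 with pravastatin. A second probe of Ndufv3 gave −0.37 with SQ1 and −0.19 with pravastatin, whereas a dimmer one gave 0.0065 and −0.11, so its probes disagreed. Ndufb9, a membrane-arm subunit, read −0.39 to −0.30 on the SQ1 arrays (median −0.36) and −0.19 to −0.084 on the pravastatin arrays (median −0.13). Its ranges did not overlap under loess, and all 16 arrays were below 0. Of the 15 complex I genes lower with SQ1 than with pravastatin, 1 kept that call under all 4 other scalings, Ndufa7 and not Ndufb9. Ndufb7, also of the membrane arm, read −0.45 to −0.25 on the SQ1 arrays (median −0.32) and −0.39 to −0.21 on the pravastatin arrays (median −0.22). No array reached 0, and the ranges of the drugs overlapped. The fit for Ndufb7 gave −0.33 ± 0.024 with SQ1 and −0.25 ± 0.024 with pravastatin. Ndufa9, next to the ubiquinone pocket, had −0.33 ± 0.024 with SQ1 and −0.19 ± 0.024 with pravastatin, and Ndufa6 had −0.29 ± 0.023 with SQ1 and −0.23 ± 0.023 with pravastatin. Ndufb9, Ndufb7, Ndufa9 and Ndufa6 each kept the SQ1 call under all 4 other scalings, while the pravastatin call of Ndufb9 was lost under median centring (−0.057, adjusted p = 0.33).

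Ndufb2, a small membrane-arm subunit, was the exception among the accessory subunits. It read 0.18 to 0.65 on the SQ1 arrays (median 0.27) and 0.18 to 0.53 on the pravastatin arrays (median 0.33). All 16 arrays were above 0, the ranges overlapped, and the highest readings of either drug were on arrays 1 and 2. Its fitted rise was 0.35 ± 0.036 with SQ1 (1.27-fold) and 0.33 ± 0.036 with pravastatin (1.26-fold), though the SQ1 call was lost when arrays were scaled to a common spread (0.27, adjusted p = 0.14). Ndufs4, whose loss causes Leigh-like disease in mice, had a bright probe at 0.0098 and a dim one at −0.65 with SQ1, and no direction is given for it.

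The assembly factors named Ndufaf, proteins that build complex I without remaining in it, moved the other way with SQ1. Of 6 measured, 5 rose with SQ1 and none fell (median 0.21, single arrays 0.11 to 0.30), and 2 rose with pravastatin (median 0.067, single arrays 0.0067 to 0.16). That is 83.3% called with SQ1, against 63.8% of all genes, and 33.3% with pravastatin, near the background of 38.9%. Under median centring the SQ1 median was 0.29. Of the 6 SQ1 rises in complex I, these 5 and Ndufb2, 6 kept their sign and 2 their call under all 4 other scalings. Ndufaf7, a methyltransferase, read 0.35 to 0.59 on the SQ1 arrays (median 0.51) and −0.039 to 0.095 on the pravastatin arrays (median 0.029). Each SQ1 array lay above each pravastatin array. The fit gave 0.49 ± 0.027 with SQ1 (1.41-fold, adjusted p = 2.0e-11) and 0.035 ± 0.027 with pravastatin (adjusted p = 0.34). A dimmer second probe of Ndufaf7 gave 0.42 and 0.13.

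Ndufaf5, a hydroxylase that modifies Ndufs7, read 0.18 to 0.32 on the SQ1 arrays (median 0.27) and 0.12 to 0.25 on the pravastatin arrays (median 0.20). All 16 arrays were above 0 and the ranges overlapped. The fit gave 0.26 ± 0.020 with SQ1 and 0.18 ± 0.020 with pravastatin. Ndufaf8, its partner protein, had 0.26 ± 0.035 with SQ1 and 0.068 ± 0.035 with pravastatin, and its SQ1 call was lost with arrays scaled to a common spread (0.20, adjusted p = 0.20). The pravastatin value missed the threshold (adjusted p = 0.14) and passed it with the replicate block (adjusted p = 0.023). Ndufaf1, part of the machinery that assembles the membrane arm, had 0.13 ± 0.028 with SQ1 and −0.052 ± 0.028 with pravastatin, of which only the SQ1 value passed, a call lost with a common array spread (0.10, adjusted p = 0.063). Ndufaf4 rose with SQ1 (0.16 ± 0.053), a call lost within scan day 1 (0.011, adjusted p = 0.86), with a common array spread (0.12, adjusted p = 0.12) and without SQ1 array 3 (adjusted p = 0.054). Its partner Ndufaf3 had 0.026 ± 0.042 with SQ1 (adjusted p = 0.61) and rose with pravastatin (0.12 ± 0.042), a call lost with a common array spread (0.28, adjusted p = 0.10) and without pravastatin array 1, 3, 6 or 7 (adjusted p = 0.054 to 0.12).

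Assembly factors of the chain outside this naming rule formed a separate list of 45 genes, 37 of them measured. With SQ1, 16 rose and 8 fell (median 0.069), and with pravastatin 7 rose and 6 fell (median −0.024). The shares called, 64.9% with SQ1 and 35.1% with pravastatin, are near the background of 63.8% and 38.9% of all genes, so the counts are no result about the list. Tmem126b, another complex I assembly factor, had 0.48 ± 0.027 with SQ1 and 0.17 ± 0.027 with pravastatin. At the other end, Tmem70, which helps to assemble complex V, had −0.24 ± 0.026 with SQ1 and −0.18 ± 0.026 with pravastatin. Sco1, a copper chaperone of complex IV, had −0.17 ± 0.027 with SQ1 and −0.23 ± 0.027 with pravastatin. Among the other complex I factors of the list, Tmem126a fell with SQ1 (−0.18 ± 0.050) and Acad9 rose (0.14 ± 0.032). Nubpl, Ecsit, Timmdc1 and Tmem186 did not pass with SQ1, and none of these genes passed with pravastatin.

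**Figure D3:**
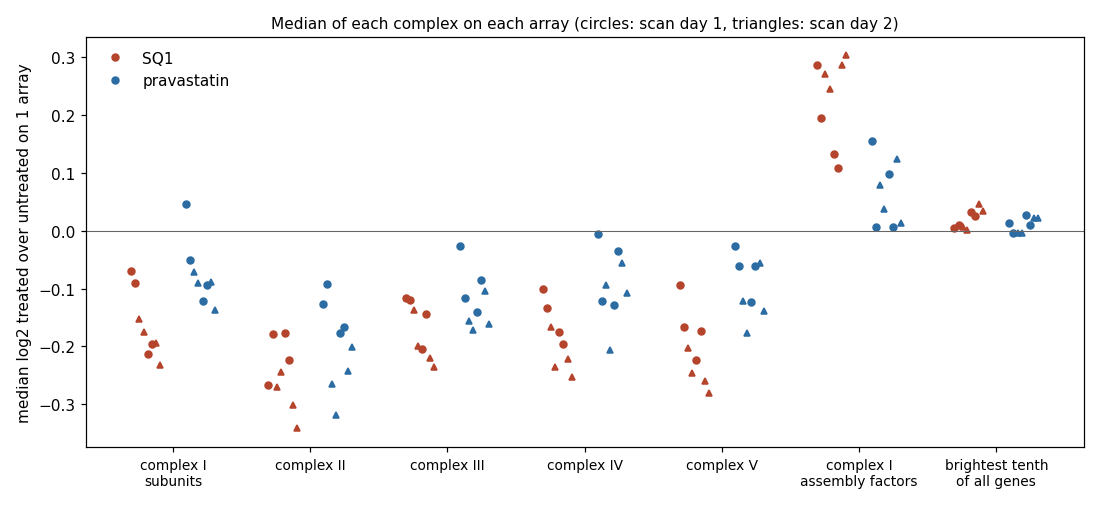
Median log2 of treated over untreated of the genes of each complex on each single array (vertical axis), with SQ1 in red left of pravastatin in blue, and with the brightest 10% of all genes for comparison. All SQ1 points of complexes I to V are below 0 under loess (medians of the fit between −0.24 and −0.15, and between −0.098 and −0.0064 under median centring), whereas those of the assembly factors are between 0.11 and 0.30.

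Complex II, the succinate dehydrogenase that also serves the citric acid cycle, was the one complex in which every gene fell with both drugs, 4 of 4, with a median of −0.24 for SQ1 and −0.19 for pravastatin. Sdhd, a membrane anchor at the ubiquinone site, read −0.59 to −0.23 on the SQ1 arrays (median −0.38) and −0.48 to −0.11 on the pravastatin arrays (median −0.27). All 16 arrays were below 0 and the ranges overlapped. Its fit gave −0.43 ± 0.035 with SQ1 (1.34-fold lower) and −0.29 ± 0.035 with pravastatin (1.22-fold lower). Sdha, the flavoprotein that oxidises succinate, had −0.27 ± 0.032 with SQ1 and −0.21 ± 0.032 with pravastatin. Sdhb, the iron-sulfur subunit, had −0.22 ± 0.022 with SQ1 and −0.13 ± 0.022 with pravastatin, and both calls were lost under median centring (−0.072, adjusted p = 0.075 with SQ1, −0.065, adjusted p = 0.16 with pravastatin), the pravastatin call also within scan day 1 (−0.099, adjusted p = 0.068). All arrays of either drug were below 0 for both of these genes. Sdhc, the other anchor, had −0.14 ± 0.042 with SQ1, which turned to 0.030 under median centring, and −0.17 ± 0.042 with pravastatin, whose call was lost there (−0.091, adjusted p = 0.15). Of the 4 falls with either drug, 2 kept their call under all 4 other scalings, those of Sdhd and Sdha.

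In complex III, 7 of 8 genes fell with SQ1 (median −0.18) and 5 with pravastatin (median −0.13). Uqcrfs1, the Rieske iron-sulfur protein, read −0.26 to −0.12 on the SQ1 arrays (median −0.22) and −0.39 to −0.10 on the pravastatin arrays (median −0.26). The ranges overlapped, with all 16 arrays below 0. The fit gave −0.21 ± 0.025 with SQ1, whose call was lost under median centring (−0.051, adjusted p = 0.31), and −0.25 ± 0.025 with pravastatin. Uqcrb, a small subunit near the ubiquinone site, had the largest SQ1 fall of the complex and read −0.45 to −0.21 on the SQ1 arrays (median −0.34) and −0.34 to −0.13 on the pravastatin arrays (median −0.24). No array reached 0, and the ranges of the drugs overlapped. The fit gave −0.34 ± 0.025 with SQ1 and −0.24 ± 0.025 with pravastatin, and the SQ1 call was lost with arrays scaled to a common spread (−0.26, adjusted p = 0.061). A much dimmer second probe of Uqcrb gave 0.035 and −0.098, so its probes disagreed with SQ1. Uqcrc2, a core protein, had −0.21 ± 0.028 with SQ1 and −0.15 ± 0.028 with pravastatin, and both calls were lost under median centring (−0.035, adjusted p = 0.50 with SQ1, −0.064, adjusted p = 0.25 with pravastatin). Its partner Uqcrc1 had −0.055 ± 0.027 with SQ1 (adjusted p = 0.087) and −0.12 ± 0.027 with pravastatin, whose call was lost under median centring (−0.079, adjusted p = 0.19). Of the 7 SQ1 falls in complex III, 5 kept their sign and 1 its call under all 4 other scalings. All 5 pravastatin falls kept their sign and 2 their call.

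Complex IV subunits exist in tissue isoforms, and the isoforms did not all move one way. Among 10 subunits of the general or liver form, 8 fell with SQ1 (median −0.24) and 8 with pravastatin (median −0.10). Over the 15 genes of the complex, 73.3% were called with SQ1 and 66.7% with pravastatin. Of the brightest 10% of all genes, 80.5% and 59.8% were. Over the complex, all 10 of the SQ1 falls kept their sign under the 4 other scalings and 6 kept their call. Of the 9 pravastatin falls, 7 kept their sign and 3 their call. The 10 SQ1 falls include Cox6c-ps1, a pseudogene by its symbol, whose dimmer second probe gave 0.015 with SQ1. Cox4i1, the regulatory subunit that binds ATP, read −0.51 to −0.23 on the SQ1 arrays (median −0.29) and −0.46 to −0.11 on the pravastatin arrays (median −0.15). Both drugs' readings stayed below 0 on all 8 arrays and their ranges overlapped. Its fit gave −0.33 ± 0.031 with SQ1 and −0.22 ± 0.031 with pravastatin. The small subunits Cox8a (−0.33 ± 0.029 with SQ1, −0.16 ± 0.029 with pravastatin), Cox7b (−0.32 ± 0.034 and −0.24 ± 0.034) and Cox6c (−0.32 ± 0.028 and −0.13 ± 0.028) also fell with both drugs. For Cox6c the ranges of the drugs did not overlap under loess, and for Cox7b all 16 arrays were below 0. Of the 6 complex IV genes lower with SQ1 than with pravastatin, 0 kept that call under all 4 other scalings. The pravastatin calls of Cox8a (−0.073, adjusted p = 0.20) and Cox6c (−0.052, adjusted p = 0.45) were lost under median centring, and within scan day 1 as well (adjusted p = 0.062 for Cox8a and 0.064 for Cox6c).

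Cox6a2, the isoform of subunit VIa that belongs to heart and skeletal muscle, gave the largest change of all 81 genes, and it was a rise. It read 1.11 to 1.74 on the SQ1 arrays (median 1.35) and 0.081 to 0.94 on the pravastatin arrays (median 0.39). Every SQ1 array lay above every pravastatin array, and for pravastatin the 4 arrays of scan day 1 were all below the 4 of scan day 2. The fitted rise was 1.42 ± 0.098 with SQ1 (2.68-fold, adjusted p = 5.2e-10) and 0.48 ± 0.098 with pravastatin (1.40-fold, adjusted p = 0.00073). Within scan day 1 it was 1.22 with SQ1 and 0.17 with pravastatin (adjusted p = 0.015). Within scan day 2 it was 1.63 with SQ1 and 0.79 with pravastatin. Its probe was outside the brightest 10%, and median centring gave 1.47 with SQ1 and 0.49 with pravastatin.

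The liver counterpart Cox6a1 fell with SQ1. It read −0.40 to −0.096 on the SQ1 arrays (median −0.22) and −0.25 to 0.16 on the pravastatin arrays (median −0.11). All 8 SQ1 arrays were below 0, 3 pravastatin arrays were above it, and the ranges overlapped. The SQ1 fit was −0.23 ± 0.028, a call lost under median centring (−0.027, adjusted p = 0.70) and with arrays scaled to a common spread (−0.18, adjusted p = 0.075). With pravastatin it was −0.076 ± 0.028, which turned to 0.017 under median centring and lost its call without pravastatin array 1, 2, 4, 5 or 8 (adjusted p = 0.055 to 0.14). Cox4i2, the isoform linked to lung and to low oxygen, did not pass with either drug (0.029 ± 0.040 with SQ1, −0.0087 ± 0.040 with pravastatin). Cox6b2, known from testis, fell by 0.19 with SQ1 and by 0.12 with pravastatin (a call lost within scan day 1, −0.072, adjusted p = 0.21), and its general counterpart Cox6b1 by 0.18 and by 0.071. The Cox6b1 call with SQ1 was lost under median centring (−0.023, adjusted p = 0.64). The Cox6b1 value with pravastatin turned to 0.0025 under median centring, and its call was lost without pravastatin array 3, 4, 5 or 7 (adjusted p = 0.051 to 0.070). A far dimmer probe of Cox6b1 gave 0.11 with SQ1.

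Cox7a2, the liver form of subunit VIIa, read −0.48 to −0.10 on the SQ1 arrays (median −0.20) and −0.43 to 0.030 on the pravastatin arrays (median −0.12). All SQ1 arrays were below 0, 3 pravastatin arrays were above it, and the ranges overlapped. It fell with SQ1 (−0.24 ± 0.048), a call lost under median centring (−0.044, adjusted p = 0.48), and with pravastatin (−0.14 ± 0.048). The pravastatin call was lost under median centring (−0.044, adjusted p = 0.55), within scan day 1 (−0.049, adjusted p = 0.45), with slide as a random block (−0.14, adjusted p = 0.087) and without pravastatin array 3, 4, 5 or 8 (adjusted p = 0.052 to 0.098). Its relative Cox7a2l, which joins complexes III and IV into a supercomplex, did not pass with either drug (0.0091 ± 0.031 with SQ1, 0.056 ± 0.031 with pravastatin). Cox5a, to which a thyroid hormone metabolite binds, read −0.18 to 0.24 on the SQ1 arrays (median 0.041) and −0.26 to 0.12 on the pravastatin arrays (median −0.034). Both ranges crossed 0. With SQ1 it had 0.055 ± 0.045 and did not pass (adjusted p = 0.30). It passed with the replicate block (adjusted p = 0.028) and within scan day 1 (0.19, adjusted p = 0.0017), yet within scan day 2 it had the opposite sign (−0.082, adjusted p = 0.026), so no direction is given for it.

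**Figure D4:**
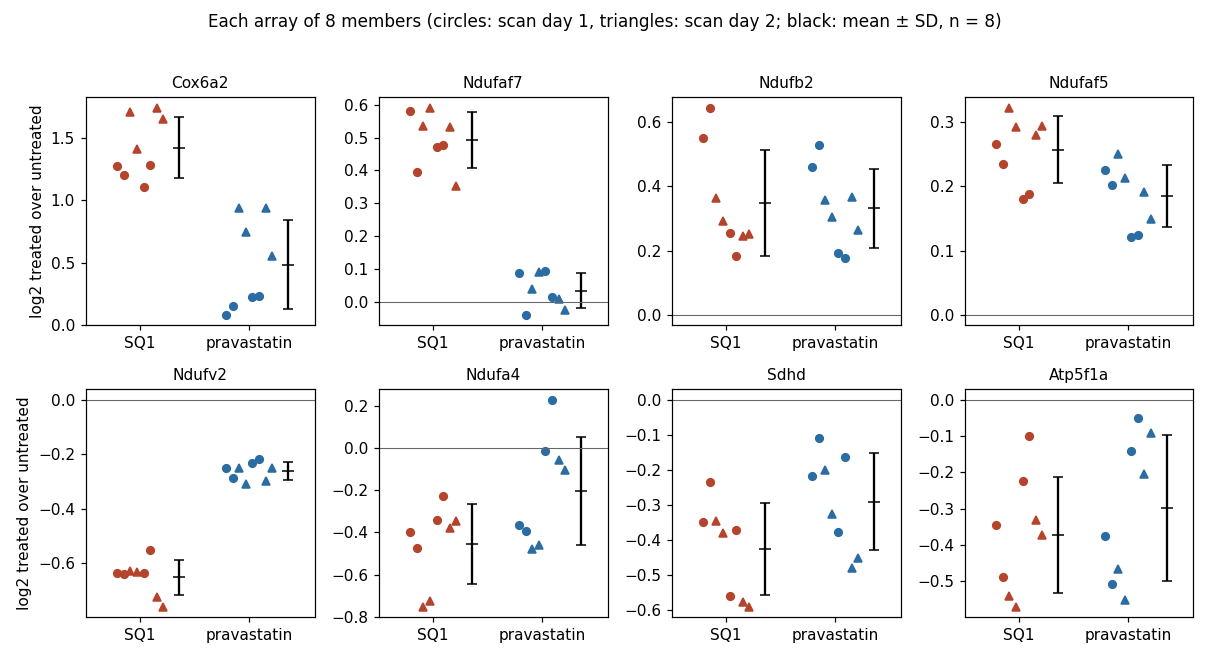
Log2 of treated over untreated on each array (points, circles for scan day 1 and triangles for scan day 2) for 8 genes, SQ1 left and pravastatin right in each panel, with mean and SD over 8 arrays in black. Cox6a2, Ndufaf7 and Ndufv2 do not overlap between the drugs, and Cox6a2 with pravastatin is lower on scan day 1 (highest 0.23) than on scan day 2 (lowest 0.55).

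Complex V, the ATP synthase, pairs a catalytic F1 head with a membrane rotor and a stalk that holds them in register. With SQ1, 11 of 15 genes fell and 1 rose (median −0.21), and with pravastatin 8 fell and 2 rose (median −0.087). That is 80% called with SQ1 and 66.7% with pravastatin, against 80.5% and 59.8% of the brightest 10% of all genes. The 5 F1 subunits had medians of −0.28 with SQ1 and −0.22 with pravastatin. Atp5f1a, the alpha subunit, read −0.57 to −0.10 on the SQ1 arrays (median −0.36) and −0.55 to −0.050 on the pravastatin arrays (median −0.29). All 16 arrays were below 0, the ranges overlapped, and the 3 lowest SQ1 and the 4 lowest pravastatin readings came from arrays with the drug in the A555 dye. The fit, which holds a dye term, gave −0.37 ± 0.034 with SQ1 and −0.30 ± 0.034 with pravastatin. Atp5f1b, the catalytic beta subunit, read −0.53 to −0.17 on the SQ1 arrays (median −0.28) and −0.42 to −0.043 on the pravastatin arrays (median −0.24). Again all 16 arrays were below 0. The fit for Atp5f1b gave −0.32 ± 0.038 with SQ1 and −0.25 ± 0.038 with pravastatin, and Atp5f1c, the gamma shaft, had −0.28 ± 0.032 with SQ1 and −0.22 ± 0.032 with pravastatin. Atp5f1a, Atp5f1b and Atp5f1c kept their calls under all 4 other scalings with both drugs. Over complex V, 9 of the 11 SQ1 falls kept their sign and 4 their call. All 8 pravastatin falls kept their sign and 3 their call.

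In the peripheral stalk, 3 of 4 genes fell with either drug. Atp5pf had −0.30 ± 0.030 with SQ1 and −0.11 ± 0.030 with pravastatin, of which the pravastatin call was lost under median centring (−0.027, adjusted p = 0.67), whereas Atp5po, the subunit at the top of the stalk, had −0.019 ± 0.026 with SQ1 and 0.062 ± 0.026 with pravastatin and did not pass with either. With pravastatin Atp5po passed with the replicate block (adjusted p = 0.0498, against 0.069 without it) and with median centring (adjusted p = 0.014), Agilent's processed signals or a common array spread. In the membrane part, the c ring showed an uneven pair. Atp5mc1 fell by 0.19 with SQ1, which turned to 0.0040 under median centring, and by 0.16 with pravastatin, a call lost there (−0.068, adjusted p = 0.26). Atp5mc2, which encodes the same mature protein, read −0.23 to 0.18 on the SQ1 arrays (median 0.14) and −0.073 to 0.35 on the pravastatin arrays (median 0.13). Most arrays were above 0, 6 of 8 with SQ1 and 7 of 8 with pravastatin. Its fit gave 0.057 ± 0.033 with SQ1 (adjusted p = 0.15) and 0.15 ± 0.033 with pravastatin, where it rose. Its second probe gave −0.11 with SQ1 and −0.027 with pravastatin, so the probes disagreed, and the call was lost with the mean of the probes (0.060, adjusted p = 0.058).

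Atp5if1, the inhibitor that stops the enzyme from running backwards, read −0.056 to 0.36 on the SQ1 arrays (median 0.11) and −0.12 to 0.22 on the pravastatin arrays (median 0.055). On the SQ1 arrays 5 of 8 were above 0, and on the pravastatin arrays the 4 with the drug in A555 were above 0 and the 4 with it in A647 below. The fit gave 0.11 ± 0.022 with SQ1 and 0.058 ± 0.022 with pravastatin. The SQ1 call was lost with arrays scaled to a common spread (0.087, adjusted p = 0.30) and without a dye term (0.11, adjusted p = 0.059). The pravastatin call (adjusted p = 0.049) was lost with the replicate number as a random block (adjusted p = 0.064), within scan day 1 (adjusted p = 0.31), without SQ1 array 3, 4, 6, 7 or 8 (adjusted p = 0.055 to 0.056) and without pravastatin array 1, 2, 3, 4, 6, 7 or 8 (adjusted p = 0.054 to 0.11).

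Set against each other, SQ1 and pravastatin differed in 35 of the 81 genes: 31 were lower and 4 higher with SQ1, against a background of 19.5% and 18.4% of all genes tested (37.9% in either direction). The total share of members, 35 of 81, is near that background, and the drugs were given at different doses on different slides. The median difference was −0.080, but it turned to 0.0037 under median centring. Median centring left 3 lower genes and a common array spread left 4, and 18 were left with the slide as a random block, 19 without a dye term and 8 within scan day 1. With the replicate number as a fixed block 40 were lower and 6 higher, and as a random block 41 were lower and 5 higher, with 11 calls gained and 0 lost in either. Ndufaf7 (0.46 ± 0.038), Cox6a2 (0.94 ± 0.14) and Ndufaf1 (0.18 ± 0.040) were higher with SQ1 and kept that call under all 4 other scalings. Ndufaf8 was higher by 0.19 ± 0.050, which turned to −0.015 with a common array spread.

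Among genes lower with SQ1, Ndufa7 (−0.24 ± 0.053) and Uqcrq (−0.23 ± 0.044) kept their calls under all 4 other scalings, although Ndufa7 missed the threshold within scan day 1 (−0.19, adjusted p = 0.074). Each rests on 1 dim probe, with a mean log2 signal of 9.99 for Ndufa7 and 9.93 for Uqcrq. The brightest 10% of genes lay above 14.4. Ndufa7, an accessory subunit of complex I, read −0.23 to 0.023 on the SQ1 arrays (median −0.18) and −0.16 to 0.24 on the pravastatin arrays (median 0.11). Uqcrq, a small subunit of complex III, read −0.33 to −0.027 on the SQ1 arrays (median −0.12) and −0.075 to 0.21 on the pravastatin arrays (median 0.097). For both genes most SQ1 arrays were below 0 and 6 of 8 pravastatin arrays above it, with ranges that overlapped. Ndufv2 (−0.39 ± 0.032) lost its call with a common array spread (−0.11, adjusted p = 0.54), as did Ndufa4 (−0.25 ± 0.060), whose sign turned there (0.023). Atp5mg and Atp5mk, subunits of the membrane part that help the enzyme to form dimers, had differences of −0.24 ± 0.046 and −0.24 ± 0.034, and both calls were lost under median centring (adjusted p = 0.16 and 0.071).

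Other genes that feed or serve the chain were grouped in further lists, to be read against the 63.8% of all genes called with SQ1 and 38.9% with pravastatin. Of 17 electron carriers and enzymes that deliver electrons to or make ubiquinone, 11 rose and 4 fell with SQ1 (median 0.10), and 3 rose and 6 fell with pravastatin (median 0.016), which is 88.2% called with SQ1 and 52.9% with pravastatin. Dhodh, which links pyrimidine synthesis to ubiquinone, had 1.21 ± 0.043 with SQ1 and 0.60 ± 0.043 with pravastatin. Coq8a, which acts in ubiquinone synthesis, had −1.30 ± 0.066 with SQ1 and −0.42 ± 0.066 with pravastatin. Among 14 enzymes of the citric acid cycle, 4 rose and 4 fell with SQ1 (median −0.0041), and 2 rose and 9 fell with pravastatin (median −0.079), or 57.1% with SQ1, near the background, and 78.6% with pravastatin. Citrate synthase, Cs, had 0.42 ± 0.031 with SQ1 and 0.098 ± 0.031 with pravastatin. Idh2, which yields NADPH in mitochondria, had −0.88 ± 0.046 with SQ1 and −0.51 ± 0.046 with pravastatin.

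Carriers that exchange ADP, ATP and phosphate, the outer membrane channels and Ucp2 made up 7 measured genes. With SQ1, 1 rose and 1 fell, and with pravastatin 3 rose and 2 fell (28.6% called with SQ1 and 71.4% with pravastatin). Ucp2, an inner membrane carrier, had 0.79 ± 0.023 with SQ1 and 0.18 ± 0.023 with pravastatin. Slc25a4, an ADP/ATP carrier, had 0.066 ± 0.034 with SQ1 and 0.33 ± 0.034 with pravastatin, of which only the pravastatin value passed. Slc25a5, another ADP/ATP carrier, did not pass with SQ1 (−0.034 ± 0.039) and fell with pravastatin (−0.13 ± 0.039). Vdac2, an outer membrane channel, fell with SQ1 (−0.098 ± 0.027) and rose with pravastatin (0.10 ± 0.027). Of 12 regulators of mitochondrial biogenesis, 6 rose and 5 fell with SQ1 (median 0.023), and none rose and 5 fell with pravastatin (median −0.060), or 91.7% called with SQ1 and 41.7% with pravastatin, the second near the background. Tfam, which maintains and transcribes mitochondrial DNA, had 0.31 ± 0.035 with SQ1 and 0.054 ± 0.035 with pravastatin, of which only the SQ1 value passed. Ppargc1b, a coactivator of respiratory genes, had −0.36 ± 0.096 with SQ1 and −0.28 ± 0.096 with pravastatin.

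Markers of the labelled cell and of other liver cells moved with the drugs as well, and their falls stand against 31.2% of all genes that fell with SQ1 and 19.6% with pravastatin. All 12 hepatocyte markers listed were measured. With SQ1 all 12 fell in the fit (median −0.60, single arrays −1.07 to −0.26), and with pravastatin 9 fell and 2 rose (median −0.29, single arrays −0.57 to 0.00016). Of the 8 SQ1 arrays, Ttr was above 0 on 4, Alb and Tf on 2 and Hnf4a on 1. The array medians were −1.07 to −0.90 with SQ1 in A555 and −0.53 to −0.26 with it in A647. For pravastatin they were −0.57 to −0.43 in A555 and −0.22 to 0.00016 in A647. All 13 macrophage markers fell with either drug in the fit (median −0.53 with SQ1 and −0.83 with pravastatin). Their median was below 0 on every array of either drug. Cd68, Marco and Csf1r were each above 0 on 1 of 8 SQ1 arrays. Of 10 stellate cell and fibroblast markers, 9 were measured, and 9 fell with SQ1 (single arrays −0.87 to −0.22) and 3 with pravastatin (single arrays −0.23 to −0.024). Endothelial markers were measured for 4 of 7, without Stab1, Stab2 and Vwf, and 3 fell with SQ1 (single arrays −0.41 to −0.16) and 1 with pravastatin (single arrays −0.17 to 0.036). Of 7 cholangiocyte markers, 5 were measured, of which 1 rose and 2 fell with SQ1 (single arrays −0.13 to 0.30) and 2 rose and 1 fell with pravastatin (single arrays −0.083 to 0.12). The part of any of these cells in the oxidative phosphorylation values was not tested.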

How the data were processed

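The scanner files hold spot intensities of both dyes, made by the authors with Agilent Feature Extraction 10.7.1.1 (build rn4), per the file headers, from RNA amplified in 1 round, per the labels' protocols. Their deposited log10 ratios and processed signals, background-subtracted and dye-normalised per the file headers, served as an alternative. The deposited value table holds log2 ratios of treated over untreated, by their match to the scanner values, and was used with each column matched to its array. Array medians were 588 to 663 for the A555 signal (local background 306 to 315) and 790 to 1076 for the A647 signal (local background 339 to 348). No spot was saturated. The number of arrays limits the precision.

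Median signals were background-corrected by normexp with an offset of 50 and normalised by loess within each array (limma 3.58.1, R 4.3.3). Of 44254 spots, 1377 controls were left out, spots of a probe were averaged, and the brightest probe stood for a gene. Of 30367 probes, 12369 had no symbol and were tested unnamed. The limma model held both drugs and dye, was fitted on all 16 arrays and gave two-sided p-values adjusted by Benjamini-Hochberg over 20789 genes. It was tested on simulated data with known changes. By the control number in the scanner files, same-numbered arrays share an untreated culture, but the main model held no term for this pairing. Its calls and SE, also those between the drugs, therefore leave the sharing out. Within a pair, the correlation of what the model left unexplained ran from 0.142 to 0.629. The highest value with another number ran from 0.273 to 0.391, so these correlations cannot decide whether the pairing holds. The labels do not state the sharing, and for 4 of 8 numbers (2, 3, 7 and 8) the highest correlation was with a different number (for number 8, 0.142 with its own and 0.330 with another). The replicate number was an alternative fitted as a fixed and as a random block. Other alternatives concerned scaling, filters, probes, dye, scan day, slide, array weights and single arrays left out.

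The genes and lists were chosen with earlier results of these data known. Any of the 81 genes could be named, but 1 is not reported here by itself and is left out of the plot of single genes. Readings per array are given for the largest called rise and fall in each complex and over all genes, the largest differences between the drugs, and a set of core subunits and isoform pairs. From other lists, except those of cell type markers, the largest called rise and fall with each drug are named. Figures were drawn with matplotlib 3.10.9.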

Additional observations from a re-analysis of the deposited data

Results flagged for a closer look

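On pravastatin array 1 the median of the complex I subunits was 0.0472, apart from the other 7 arrays, which lay between −0.136 and −0.0513. The gap to the nearest array was 0.536 of the whole range. This was the one group of 8 arrays set apart in this way among 77 checked, and chance sets apart about 1 in 20 such groups.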

How the results depend on the processing

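Median centring in place of loess had the largest effect. With SQ1 it gave 17 genes up and 25 down and medians of −0.0237 for all genes, −0.00641 for complex I subunits, 0.288 for the assembly factors, −0.0985 for complex II, −0.0427 for complex III, −0.0403 for complex IV and −0.0353 for complex V. With pravastatin it gave 12 up and 16 down and medians of −0.0196 for all genes, −0.0118 for complex I subunits, −0.0504 for complex III and −0.00489 for complex V. Between the drugs 3 genes were lower with SQ1, and the median difference turned to 0.00372. The signs of Ndufs1 (0.0390), Sdhc (0.0302) and Atp5mc1 (0.00401) turned with SQ1, and those of Cox6a1 (0.0168) and Cox6b1 (0.00246) with pravastatin. Arrays scaled to a common spread gave 3 genes up and a complex II median of −0.185 with SQ1, an assembly factor median of 0.145 with pravastatin, and 4 lower genes and a median of −0.0393 between the drugs, with Ndufaf8 (−0.0154) and Ndufa4 (0.0226) turned. Between the drugs, 19 genes were lower without a dye term, 18 with slide as a random block and 8 within scan day 1. Within scan day 1, 21 genes fell with pravastatin. Within scan day 2 the pravastatin median was −0.123 and Cox5a turned with SQ1 (−0.0822). The replicate number gave 13 genes up with pravastatin as a fixed block and 5 as a random block. The cause of these shifts was not tested.

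Leaving out single arrays gave 7 to 9 genes up, 56 to 62 down and a median of −0.183 to −0.170 with SQ1. It gave 4 to 8 up, 36 to 48 down and a median of −0.0941 to −0.0656 with pravastatin, and 4 to 5 up, 22 to 33 down and a median of −0.0989 to −0.0685 between the drugs. Of the calls, 63 of 67 with SQ1, 39 of 50 with pravastatin and 26 of 35 between the drugs held without any single array.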
